A study of Homo sapiens with 6 samples.

Results

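A set of 8 genes of MHC class I antigen presentation was followed in A549 cells with and without GPX3 overexpression. They were taken by symbol from the deposited tables, and 8 of 8 symbols were found among the 58735 genes listed: HLA-B, HLA-C, HLA-E, B2M, TAP1, TAP2, TAPBP and NLRC5. All 8 passed the filter on low counts, which left 14458 genes to be tested. The series holds 6 bulk RNA libraries of A549, an established human lung adenocarcinoma line of epithelial origin. Of these, 3 are titled Vector, with genotype and treatment both given as WT, and 3 are titled OE_GPX3, with both given as OE. No treatment time is in the labels, nor any promoter or construct for the overexpressed gene, nor whether the cells are 1 clone or a pool. Whether the replicates were grown separately is not stated either, and each p-value below therefore reflects only library-to-library spread, which may be technical. Total counts ran from 15831693 to 18751815 per library. GPX3, a secreted glutathione peroxidase, checks the labels: its counts were 638, 658 and 648 under Vector against 23372, 17470 and 20984 under OE_GPX3, 33.8-fold higher on the fitted scale.

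MHC class I molecules show fragments of the cell's own proteins to cytotoxic T cells. Each is a polymorphic heavy chain, such as HLA-B or HLA-C, or the less variable HLA-E, held together by beta-2-microglobulin, the product of B2M. The proteasome cuts proteins into peptides, the TAP1 and TAP2 subunits form the transporter that pumps peptides into the endoplasmic reticulum, and tapasin, encoded by TAPBP, bridges the transporter to empty class I molecules. NLRC5 is the transactivator that acts on class I promoters, and interferon-gamma is the classical inducer of the whole set. Loss of B2M, TAP1 or NLRC5 expression is a known route by which tumours escape T cells.

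Of the members, 6 lie in the MHC on chromosome 6 (hg38). HLA-E lies at 30489467 to 30494205 on the plus strand. HLA-C at 31268749 to 31272130, HLA-B at 31269491 to 31357188, TAP2 at 32821833 to 32838780, TAP1 at 32845209 to 32853978 and TAPBP at 33299694 to 33314387 lie on the minus strand. B2M lies on chromosome 15 at 44711487 to 44718877 and NLRC5 on chromosome 16 at 56989485 to 57083531, both on the plus strand. The deposited positions were the same as those of GENCODE release 29 for all 58735 genes.

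What the members share in sequence was read from the 250 bases before the RefSeq transcription start (GRCh38.p14), a table that held 6 of the 8, all but HLA-E and NLRC5. In all, 4 motifs were searched on both strands by their letters: an interferon-stimulated response element (ISRE; GAAA, any 2 bases, GAAA), a kappaB motif (GGG, any 2 bases, T, any 2 bases, CC), the CCAAT box that nuclear factor Y binds, and the core TGACG of a cyclic AMP response element (CRE). The stretches below run 5′ to 3′ on the gene's own strand. For HLA-B, HLA-C and B2M they start 10 bases before the first match at or after position -180 from the start site and end 10 bases after the last match. For TAP1, TAP2 and TAPBP, where the region lies in GENCODE exons of the gene or, for TAP2, of a read-through gene described below, they hold only the ISRE run with up to 5 bases on each side. Capitals mark the matches, which overlap each other within the paired ISRE and kappaB runs. The windows are chr6:31357221-31357366 for HLA-B, chr6:31272134-31272274 for HLA-C, chr15:44711363-44711482 for B2M, chr6:32853818-32853843 for the upstream of 2 RefSeq starts of TAP1, chr6:32838783-32838802 for TAP2 and chr6:33314079-33314103 for TAPBP. They are shown because elements of these kinds are known parts of class I promoters and of their response to interferon.
HLA-B: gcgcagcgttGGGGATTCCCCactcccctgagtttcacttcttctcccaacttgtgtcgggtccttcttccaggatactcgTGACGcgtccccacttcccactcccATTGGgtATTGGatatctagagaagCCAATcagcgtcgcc
HLA-C: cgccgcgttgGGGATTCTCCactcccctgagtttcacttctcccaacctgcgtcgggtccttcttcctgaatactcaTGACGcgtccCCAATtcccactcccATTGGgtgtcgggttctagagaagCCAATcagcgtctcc
B2M: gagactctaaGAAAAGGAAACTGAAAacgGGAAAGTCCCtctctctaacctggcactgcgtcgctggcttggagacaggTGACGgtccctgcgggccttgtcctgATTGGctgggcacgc
TAP1: gccgcTTTCGATTTCGCTTTCcccta
TAP2: gaagcGAAAGCGAAAgctgc
TAPBP: tggagGAAAGTGAAAGTGAAAggag
The ISRE letters were in 4 of these 6 promoters (B2M, TAP1, TAP2 and TAPBP), against 3% of the 35116 promoters in the table. The kappaB letters were in 5 of 6 (all but TAP2), against 19.7%. CCAAT stood in 4 of 6 against 32%, and TGACG in 4 of 6 against 21.2%. For TAP1 only the upstream start was counted, whereas the 35116 promoters count each start separately. The 250 bases before the other TAP1 start held no match to any of the 4 motifs. Within the stretches shown, HLA-B and HLA-C carry the same order of elements, a kappaB match, then TGACG, then CCAAT boxes in both orientations. Before its kappaB match HLA-C has a further CCAAT match, at -192 to -188, which HLA-B lacks. The kappaB matches of TAP1 and TAPBP, the TGACG of TAP2, the CCAAT match of TAP1 and the first of 4 in HLA-C lie outside the stretches shown. A match describes the letters only and does not show that a factor is bound there. A missing match, such as that of the ISRE letters in HLA-B and HLA-C, does not show that the element is absent, since variants with other letters were not searched.

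**Figure D1:**
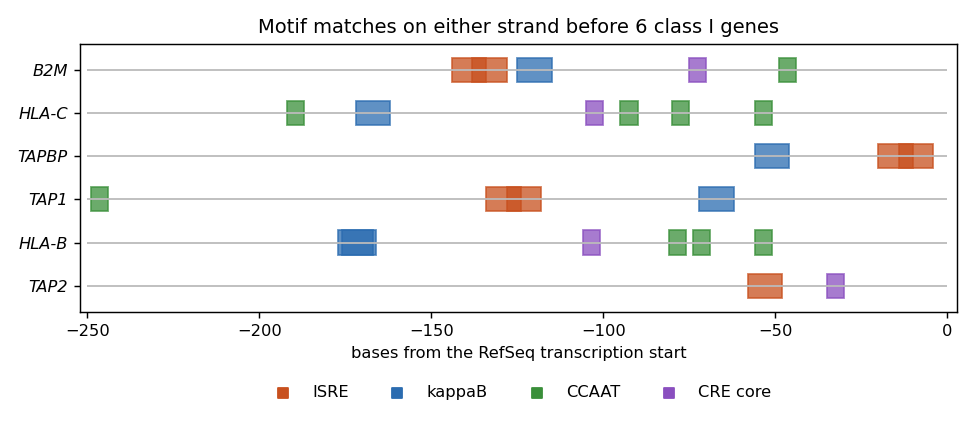
Positions of motif matches in the 250 bases before the RefSeq start of 6 class I genes, for TAP1 the upstream start only. The horizontal axis is the distance in bases from the start site, each row is 1 gene and each box is a match on either strand. TAPBP and TAP2 have their ISRE matches closest to the start site. From the kappaB match onward, HLA-B and HLA-C share a kappaB, CRE core and CCAAT layout.

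The members spanned a wide range of transcript levels, from B2M and HLA-E at the top to NLRC5 at the bottom. Levels between genes are given as the deposited FPKM, the count per gene length and library. B2M was the highest at 75.5 ± 1.39 FPKM (SD, n = 3) in Vector, followed by HLA-E at 62.9 ± 5.06, HLA-C at 56.7 ± 6.53, TAPBP at 23.3 ± 2.09, TAP1 at 17.8 ± 1.98, HLA-B at 16.7 ± 1.91, TAP2 at 2.02 ± 0.0279 and NLRC5 at 0.81 ± 0.132 (SD, n = 3 each). Among the 14458 tested genes these Vector means stood at percentile 96.3 for B2M, 95.6 for HLA-E, 95.1 for HLA-C, 82.4 for HLA-B, 39.3 for TAP2 and 21.9 for NLRC5. In OE_GPX3 the order of the means was the same: 77.3 ± 8.35, 71 ± 3.54, 61.5 ± 1.91, 28 ± 2.46, 19.2 ± 0.984, 18 ± 1.12, 2.05 ± 0.207 and 0.842 ± 0.0596 FPKM (SD, n = 3 each). Over the 6 libraries the ranges of B2M and HLA-E overlapped, as did those of HLA-E and HLA-C and those of TAP1 and HLA-B. Within the same library, HLA-E was above HLA-C in 6 of 6, B2M above HLA-E in 5 of 6 and TAP1 above HLA-B in 4 of 6, so of these neighbours B2M and HLA-E, and TAP1 and HLA-B, were not in 1 order throughout. The ranges of HLA-C and TAPBP, of TAPBP and TAP1, of HLA-B and TAP2, and of TAP2 and NLRC5 did not overlap. Together the 8 genes took 0.11% ± 0.00206 of all counts under Vector and 0.112% ± 0.00626 under OE_GPX3 (SD, n = 3 each).

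**Figure D2:**
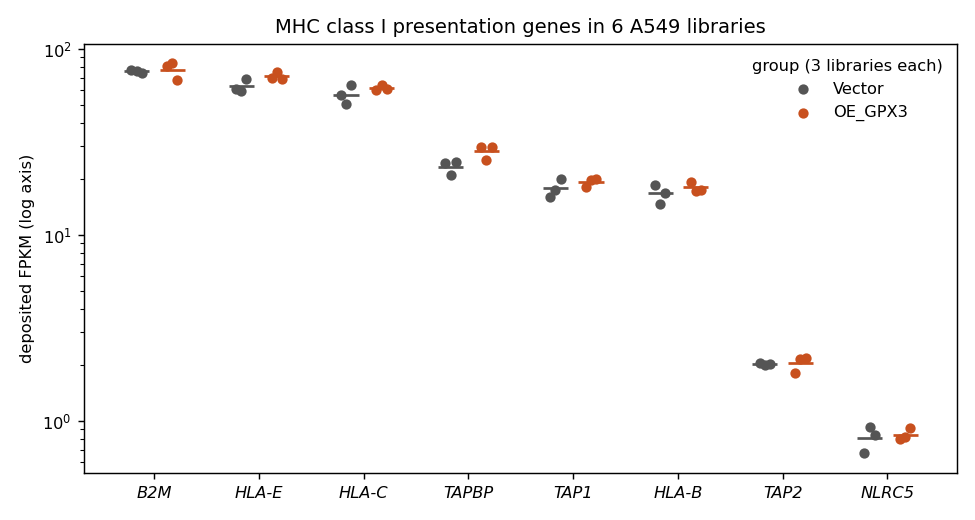
Deposited FPKM of the 8 genes on a log axis, ordered by their mean in Vector. Points are single libraries, grey for Vector and orange for OE_GPX3, and lines are the means of 3 libraries. For 7 of the genes the points of both groups overlap, and for TAPBP the OE_GPX3 points lie above the Vector points.

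The distance between B2M and its heavy chains depends on the gene length used. The deposited length of B2M is 6079 bases, which joins the exons of 15 annotated transcripts, and is 3.57 times that of its principal GENCODE transcript (1705 bases, 4 exons). For the other members the ratio runs from 1.14 for HLA-E to 2.68 for TAPBP. With principal transcript lengths, an alternative added after the lengths were seen, B2M stood at 269 ± 4.96 FPKM in Vector, HLA-C at 92.5 ± 10.7, HLA-E at 71.9 ± 5.79, TAPBP at 62.3 ± 5.61, HLA-B at 32.9 ± 3.77, TAP1 at 28.8 ± 3.22, TAP2 at 5.16 ± 0.0715 and NLRC5 at 1.47 ± 0.239 (SD, n = 3 each). B2M then lay apart from all other members, and HLA-C and HLA-E, as well as HLA-B and TAP1, exchanged places: HLA-C was above HLA-E, and HLA-B above TAP1, in 6 of 6 libraries. The ratio of B2M to the sum of HLA-B, HLA-C and HLA-E was 0.558 ± 0.0584 in Vector by deposited FPKM and 1.37 ± 0.146 by principal length (SD, n = 3 each). In OE_GPX3 it was 0.513 ± 0.0436 and 1.27 ± 0.109 (SD, n = 3 each). Which of these is higher therefore changes with the length, whereas comparisons of 1 gene between libraries do not depend on it.

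No member passed the test for a difference between OE_GPX3 and Vector. Of 8 members, 0 were called higher and 0 lower by edgeR's quasi-likelihood test at an adjusted p under 0.05, where 0.263% of all tested genes were called. DESeq2 also called 0 of 8, where it called 0.428% of the 26839 genes to which it gave a p-value. That share includes genes to which it gave no adjusted p and which could not be called. A fit with a replicate block called 0 of 8, where it called 1.6% of all tested genes. On log2(FPKM + 1), limma called 0 of the 7 members it tested, where it called 0.0925% of its genes. At an unadjusted p under 0.05, edgeR had 1 member, TAPBP, where 14.6% of all tested genes passed. The 95% confidence intervals of the 8 fold changes reached no lower than 0.816-fold and no higher than 1.39-fold. Their point estimates lay above 0 for 8 of 8 members, where 47.4% of all tested genes did, but for 5 of 8 with scaling by total counts alone or after a correction for GC content and for 6 of 8 with upper-quartile scaling. The median log2 fold change of the members was 0.10, beside -0.02 over all tested genes. In bulk RNA, a change in how many cells express a gene and a change per cell cannot be told apart.

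**Figure D3:**
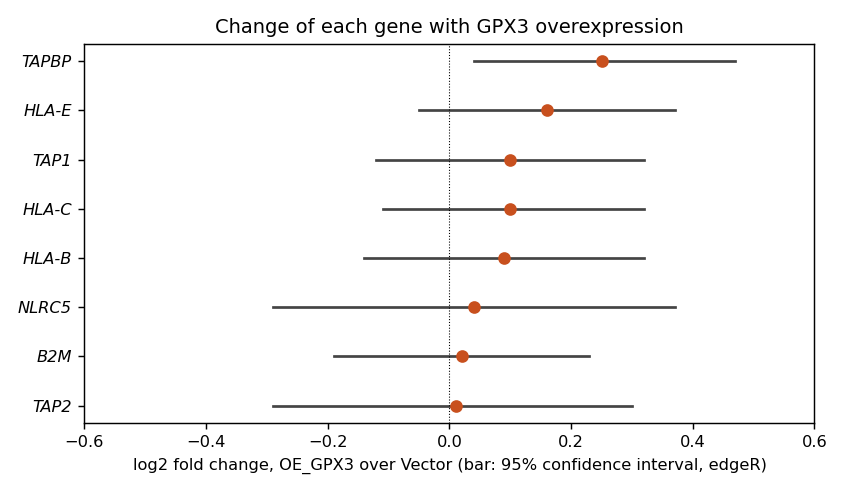
Log2 fold change of each gene, OE_GPX3 over Vector, from edgeR. Points are estimates, bars are 95% confidence intervals and the dotted line marks no change. The interval of TAPBP, 0.04 to 0.47, lies above 0, and the other 7 include 0.

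Among the heavy chains, HLA-E presents signal peptides of other class I molecules to natural killer cell receptors. Its library-scaled counts (CPM, with TMM factors) were 184, 178 and 205 for Vector against 209, 223 and 202 for OE_GPX3. OE_GPX3 replicates 1 and 2 were above all Vector libraries, while replicate 3 fell just under Vector replicate 3. edgeR put the log2 fold change of HLA-E at 0.16 (95% interval -0.05 to 0.37, adjusted p = 0.468). HLA-C, which presents peptides to T cells and is a main ligand of killer cell immunoglobulin-like receptors, was at 143, 128 and 160 CPM in Vector and at 152, 159 and 151 CPM in OE_GPX3. Its OE_GPX3 libraries lay inside the range of the Vector libraries, and edgeR put the log2 fold change at 0.10 (95% interval -0.11 to 0.32, adjusted p = 0.658). HLA-B, the most polymorphic of the heavy chains, was at 57.6, 45.5 and 51.5 CPM in Vector and at 59.3, 52.5 and 53.1 CPM in OE_GPX3. Vector replicate 2 was the lowest library for both HLA-B and HLA-C, and without it their log2 fold changes shrank to 0.01 and 0.03. With all libraries edgeR put HLA-B at 0.09 (95% interval -0.14 to 0.32, adjusted p = 0.725). The makeup of the 3 heavy chains differed between the groups by less than the spread within Vector: by FPKM, HLA-E was 46.2% ± 1.34, HLA-C 41.5% ± 1.04 and HLA-B 12.3% ± 1.27 of their sum in Vector, and 47.1% ± 0.821, 40.9% ± 0.474 and 12% ± 0.941 in OE_GPX3 (SD, n = 3 each).

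The heavy chain values carry a limit from sequence likeness. Over their coding sequences in GENCODE, HLA-B and HLA-C were identical at 1005 of 1086 aligned bases (92.5%), and HLA-E was identical to HLA-B at 86.8% and to HLA-C at 86.7%. The most divergent 90-base stretch without gaps between HLA-B and HLA-C, coding bases 844 to 933 of both, differs at 13 bases, which are in capitals below. It is shown because even here most letters agree, and reads of 1 gene can resemble the other.
HLA-B: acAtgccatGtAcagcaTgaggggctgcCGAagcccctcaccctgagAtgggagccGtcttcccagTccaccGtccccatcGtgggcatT
HLA-C: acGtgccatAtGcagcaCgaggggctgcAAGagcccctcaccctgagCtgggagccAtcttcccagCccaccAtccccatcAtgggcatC
Of all 50-base windows in the coding sequence, 2.4% for HLA-B, 8.4% for HLA-C and 11.6% for HLA-E occur letter for letter in a transcript of another gene. At 100 bases these shares were 0%, 0.4% and 1.5%. These are reference alleles, and those of A549 may differ from them. The annotated HLA-B gene also reaches across HLA-C on the same strand through 1 short transcript, which has 35 exon bases inside HLA-C. The sources used here do not give the read length or the treatment of reads with several placements, and the split between heavy chains is uncertain for that reason.

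B2M encodes the common light chain that every class I heavy chain needs to reach the cell surface. It was at 472, 469 and 452 CPM in Vector and at 495, 506 and 410 CPM in OE_GPX3. The OE_GPX3 libraries spread on both sides of the Vector libraries: replicates 1 and 2 were above all of them and replicate 3 was the lowest of all 6. edgeR put the log2 fold change of B2M at 0.02 (95% interval -0.19 to 0.23, adjusted p = 0.948). It was 0.12 without OE_GPX3 replicate 3 and -0.03 without OE_GPX3 replicate 2, and it was below 0 with upper-quartile scaling (-0.01) and with total counts alone (-0.04). B2M supplied 43.2% ± 2.37 of the counts of the 8 genes under Vector and 40.9% ± 2.67 under OE_GPX3 (SD, n = 3 each).

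Of the peptide loading genes, TAPBP was the member with the smallest p. Tapasin, its product, keeps empty class I molecules at the transporter and favours tightly bound peptides. TAPBP was at 125, 107 and 126 CPM in Vector and at 150, 127 and 148 CPM in OE_GPX3. All 3 OE_GPX3 libraries were above all 3 Vector libraries, by a narrow margin between OE_GPX3 replicate 2 and Vector replicate 3. Among all tested genes the groups likewise did not overlap with OE_GPX3 higher in 8.62%. TAPBP was 1.19-fold higher in OE_GPX3 by the point estimate, 0.25 on the log2 scale (95% interval 0.04 to 0.47), and did not pass the test (edgeR adjusted p = 0.275). Without Vector replicate 2, the lowest library, the log2 fold change was 0.18. Over 19 alternatives its log2 fold change ran from 0.16 to 0.34 and its adjusted p from 0.0662 to 0.753.

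TAP1 and TAP2 encode the paired subunits of the peptide transporter, yet their transcripts stood far apart. TAP1 was at 77.9, 85 and 96 CPM in Vector and at 87.7, 94.7 and 95 CPM in OE_GPX3, with Vector replicate 3 the highest library. edgeR put TAP1 at a log2 fold change of 0.10 (95% interval -0.12 to 0.32, adjusted p = 0.68). TAP2 was at 13.3, 12.9 and 12.9 CPM in Vector and at 11.7, 13.8 and 13.9 CPM in OE_GPX3, so that the OE_GPX3 libraries enclosed the Vector libraries. For TAP2 the estimate was 0.01 (95% interval -0.29 to 0.30, edgeR adjusted p = 0.992). Per length, TAP1 exceeded TAP2 by a ratio of 8.81 ± 1.06 under Vector and 9.42 ± 0.502 under OE_GPX3 (SD, n = 3 each), or 5.58 ± 0.673 and 5.96 ± 0.317 with principal transcript lengths. That ratio is uncertain on the side of TAP2. A read-through gene on the same strand, AL669918.1 at 32813767 to 32838822, covers TAP2, and 98.7% of the 50-base windows of the TAP2 coding sequence also occur in other genes, led by this one. AL669918.1 had 0 counts in all 6 libraries, and the sources used here do not give how reads matching both genes were counted. TAP1 overlaps PSMB9 on the other strand, and use of strand in the counting is likewise not given. The RefSeq starts of TAP1 and PSMB9 lie 488 bases apart and point away from each other.

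NLRC5, the class I transactivator, was the member with the lowest level. It was at 8.41, 11.6 and 10.4 CPM in Vector, from 149, 226 and 170 counts, and at 9.98, 10.1 and 11.2 CPM in OE_GPX3, from 178, 171 and 173 counts. Both the lowest and the highest library were Vector libraries, replicates 1 and 2. edgeR put NLRC5 at a log2 fold change of 0.04 (95% interval -0.29 to 0.37, adjusted p = 0.928), and leaving out Vector replicate 1 turned it to -0.08 and leaving out Vector replicate 2 moved it to 0.15. NLRC5 did not reach the mean of 1 FPKM that the fit on FPKM required and was tested there only without a filter.

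Differences in base composition between libraries touch these values. With the tested genes cut by GC content into 5 groups of 2890, the median log2 fold change was -0.18 in the lowest group, up to 41.3% GC, and 0.16 in the highest, from 58.4% GC. In the lowest group every Vector library lay above every OE_GPX3 library, and in the highest group Vector replicate 3 alone broke the reverse order, above OE_GPX3 replicate 1. Median deviations of log2 CPM from the mean over the 6 libraries, in the lowest and the highest group, were 0.16 and -0.14 in Vector replicate 1, 0.10 and -0.12 in Vector replicate 2, and -0.21 and 0.16 in OE_GPX3 replicate 3. Vector replicate 3 (0.02 and 0.03), OE_GPX3 replicate 1 (-0.05 and 0.01) and OE_GPX3 replicate 2 (0.00 and 0.06) showed little of the trend. B2M, at 40.6% GC, falls in the lowest group, TAP2 (49.1%) in the middle one, and HLA-E (54.8%), TAP1 (57.5%), TAPBP (57.6%) and NLRC5 (58%) in the next, while HLA-B (59%) and HLA-C (62.7%) fall in the highest. With a GC trend per library in the fit, the log2 fold change of B2M moved from 0.02 to 0.19 (95% interval 0.01 to 0.36). Under the same correction TAPBP moved to 0.16 and HLA-E to 0.10, HLA-B turned to -0.02, HLA-C to -0.05 and NLRC5 to -0.07. The adjusted p values of the members under it ran from 0.48 for B2M to 0.991 for TAP1 in edgeR. No member was called with or without the correction.

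**Figure D4:**
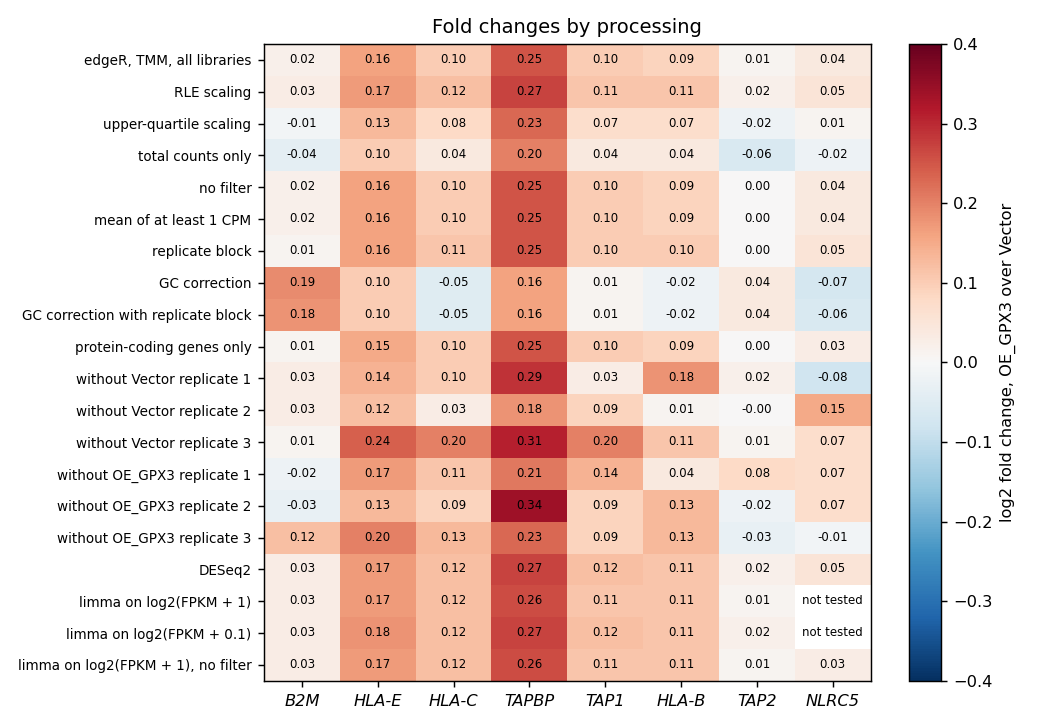
Log2 fold change, OE_GPX3 over Vector, of each gene (columns) under each way of processing (rows), coloured from blue for lower to red for higher. TAPBP, HLA-E and TAP1 stay above 0 in every row, while B2M, HLA-C, HLA-B, TAP2 and NLRC5 have rows on both sides of 0.

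The genes around the members were described through 6 further lists. Of their 96 symbols 96 were matched, the pair MARCHF9 and MARCHF4 through the older names MARCH9 and MARCH4, and 82 were tested. Among those 82, 0 were called higher and 1 lower in edgeR at an adjusted p under 0.05, where 0.0968% and 0.166% of all tested genes were. At an unadjusted p under 0.05, edgeR had 16 of the 82, where 14.6% of all tested genes passed. The lists' medians below stand beside the median of -0.02 over all tested genes, and their counts above 0 beside 47.4% of all tested genes. The 1 called gene was ULBP1 (ENSG00000111981), which encodes a class I-like ligand that stressed cells show to the NKG2D receptor of natural killer cells. ULBP1 was at 2.93, 6.48 and 4.22 CPM in Vector, from 52, 126 and 69 counts, and at 1.4, 1.83 and 2.59 CPM in OE_GPX3, from 25, 31 and 40 counts. All OE_GPX3 libraries were below all Vector libraries, as in 9.9% of tested genes, and Vector replicate 2 was far above the rest. ULBP1 was 2.36-fold lower in OE_GPX3, -1.24 on the log2 scale (95% interval -1.81 to -0.67, edgeR adjusted p = 0.0402). Its call was kept under 9 of 18 alternatives and lost under 9, with a log2 fold change between -1.49 and -0.57. The losses include the fit without Vector replicate 2 (log2 fold change -0.89, edgeR adjusted p = 0.647) and that with the GC correction (-1.09, edgeR adjusted p = 0.255), and also those without Vector replicate 3 (adjusted p = 0.0921), OE_GPX3 replicate 2 (adjusted p = 0.129) or OE_GPX3 replicate 3 (adjusted p = 0.0706).

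Among the other class I and class I-like molecules, 11 of 15 were tested, with 0 higher, 1 lower, 7 above 0 and a median log2 fold change of 0.04. FCGRT, the neonatal Fc receptor heavy chain that also pairs with beta-2-microglobulin, averaged 44.3 ± 6.58 CPM under Vector and 57.5 ± 1.33 under OE_GPX3 (SD, n = 3 each). Its log2 value was 0.38, and edgeR gave an adjusted p of 0.143. FCGRT passed with the replicate block (edgeR adjusted p = 0.0448), where 1.6% of all tested genes were called. It also passed without OE_GPX3 replicate 1 (edgeR adjusted p = 0.0376), where 657 of 14707 genes were called. Its value was 0.23 after the GC correction. The endothelial protein C receptor gene PROCR had 0.28 and MICB, another NKG2D ligand, 0.26, without passing (edgeR adjusted p = 0.206 and 0.377). HLA-G had 0 counts in all 6 libraries, which allows up to 3 counts, or between 0.16 and 0.189 CPM depending on the library, for counting error only.

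No proteasome gene was called with all libraries. Of 11 tested genes of the immunoproteasome, its constitutive counterparts and the activators, 0 were called and the median log2 fold change was 0.16. Of the 11, 10 had a log2 fold change above 0, where 47.4% of all tested genes did. The constitutive catalytic subunit genes PSMB6 and PSMB5 had 0.33 and 0.24, and their interferon-induced replacements PSMB9 and PSMB8 had 0.28 and 0.18 (edgeR adjusted p = 0.167, 0.316, 0.33 and 0.448). Without OE_GPX3 replicate 1, PSMB6 (0.43, edgeR adjusted p = 0.00463) and PSMB5 (0.34, edgeR adjusted p = 0.0311) passed, where 657 of 14707 genes were called. Over the 19 alternatives PSMB6 ran from 0.24 to 0.43, PSMB5 from 0.12 to 0.34, PSMB9 from 0.21 to 0.40 and PSMB8 from 0.12 to 0.27. PSMB5 spanned its whole range over the fits that leave out 1 library. Per length the constitutive subunits were far above the induced ones in both groups. The FPKM ratio of PSMB5 to PSMB8 was 8.4 ± 0.21 in Vector and 8.68 ± 0.728 in OE_GPX3, that of PSMB6 to PSMB9 was 17.1 ± 1.35 and 17.5 ± 0.433, and that of PSMB7 to PSMB10 was 16.8 ± 0.468 and 17.6 ± 2.22 (SD, n = 3 each).

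Peptide trimming and chaperone genes, 23 tested, had 0 calls, 12 values above 0 and a median log2 fold change of 0.03. Calreticulin, the product of CALR, is a chaperone of the loading complex, and CALR averaged 541 ± 64.6 CPM under Vector and 669 ± 32.9 under OE_GPX3 (SD, n = 3 each). The CALR estimate was 0.31 on the log2 scale (edgeR adjusted p = 0.184). THOP1, a cytosolic peptidase that destroys peptides, had 0.28, the tapasin-related editor TAPBPL 0.22 and the ubiquitin ligase gene MARCH9 0.16 (edgeR adjusted p = 0.252, 0.501 and 0.521). THOP1 passed without OE_GPX3 replicate 1 (0.41, edgeR adjusted p = 0.00788), where 657 of 14707 genes were called. After the GC correction THOP1 and TAPBPL were both at 0.12 and MARCH9 was at 0.05.

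Regulators of class I transcription, 20 tested, had 0 calls, 8 values above 0 and a median of -0.04. RFXANK, a subunit of the RFX complex that anchors NLRC5 at class I promoters, had a log2 fold change of 0.37 (41.2 ± 1.94 and 53.2 ± 5.76 CPM, SD, n = 3 each), and edgeR gave an adjusted p of 0.15. RFXANK passed with the replicate block (0.36, edgeR adjusted p = 0.045), where 1.6% of all tested genes were called. It also passed without OE_GPX3 replicate 1 (0.46, edgeR adjusted p = 0.012), where 657 of 14707 genes were called. The CRE-binding factors ATF1 and CREB1 had -0.42 and -0.34, and the Polycomb subunit SUZ12 had -0.36 (edgeR adjusted p = 0.242, 0.304 and 0.264). The GC correction moved RFXANK to 0.23, ATF1 to -0.22, CREB1 to -0.13 and SUZ12 to -0.16. Interferon receptor and JAK-STAT genes, 14 tested of 15, had 0 calls, 7 values above 0 and a median of 0.01. There the interferon-gamma receptor subunit IFNGR1 had -0.26, the phosphatase PTPN2 -0.34 and the kinase JAK1 -0.16 (edgeR adjusted p = 0.255, 0.287 and 0.498). These became -0.08, -0.16 and -0.08 after the GC correction.

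**Figure D5:**
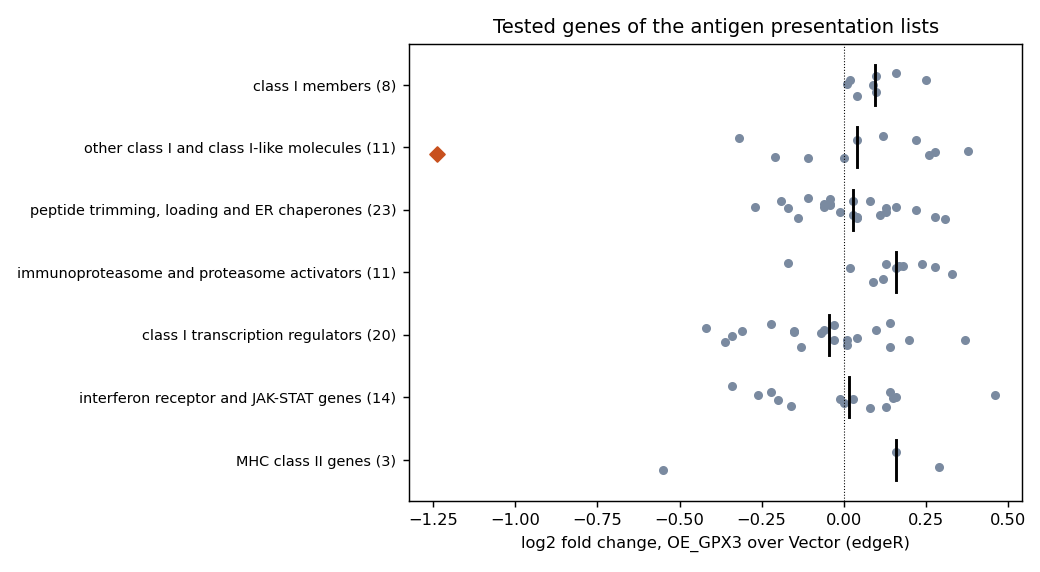
Log2 fold change, OE_GPX3 over Vector, of every tested gene of the 8 class I members and of 6 further lists, with the number tested in brackets. Each point is a gene, vertical bars are list medians, the vertical position within a list is arbitrary and the orange diamond is the 1 called gene, ULBP1. The 8 members sit between 0.01 and 0.25.

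Class II genes and markers of other cell types were checked beside these. Of 12 class II genes 9 were too low to be tested and 5 had 0 counts in all 6 libraries, namely HLA-DRA, HLA-DRB1, HLA-DPB1, HLA-DQA1 and HLA-DQB1. CD74, the invariant chain, had 1 to 2 counts per library. The peptide editors HLA-DMA and HLA-DMB had log2 fold changes of 0.29 and 0.16, and the class II transactivator CIITA had -0.55, its interval reaching from -1.40 to 0.31 (edgeR adjusted p = 0.333, 0.717 and 0.55). The 12 blood cell markers summed to between 14.8 and 19.4 CPM in Vector and between 18.8 and 21.1 CPM in OE_GPX3, mostly from CD14 with 225 to 302 counts. CD3D, CD2 and MS4A1 were at 0 counts in every library and PTPRC, the pan-leukocyte marker, had at most 2 counts. The 8 fibroblast markers summed to at most 7.23 CPM and the 6 endothelial markers to at most 1.23 CPM in any library. Epithelial and A549 markers, led by KRT8 and KRT18, were abundant, at 34864 to 37523 CPM in Vector and 39262 to 47141 CPM in OE_GPX3, while the surfactant gene SFTPB had at most 4 counts. The epithelial sum thus did not overlap between the groups, and its part in the values of the members was not tested.

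Across the 6 libraries the members did not share 1 pattern. Pearson's r of log2 CPM between pairs of members, given as a description over 6 libraries that also share depth and base composition differences, had a median of 0.07 over 28 pairs and ran from -0.73 for HLA-B and NLRC5 to 0.90 for HLA-C and HLA-E. Averaged over the 8 standardised profiles, Vector replicate 2 was the lowest library at -0.74 SD and OE_GPX3 replicate 2 the highest at 0.55 SD. Among 9973 protein-coding genes of at least 5 CPM, the profiles most like that average were those of EIF3B (r = 0.995), GUCD1 (0.995), AES (0.994), MAPK3 (0.993) and AACS (0.993). For single members the closest were IFNGR2 for HLA-B (0.989), PPT2 for HLA-C (0.980), BCL7C for HLA-E (0.993), THYN1 for B2M (0.995), HDAC11 for TAP1 (0.995), NELFCD for TAP2 (0.990), GRINA for TAPBP (0.990) and GTF2F1 for NLRC5 (0.987). Each is the highest of 9973 correlations over 6 libraries and was chosen for that.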

How the data were processed

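RNA was measured in 6 A549 libraries, grouped by title. The authors deposited whole-number counts per gene without normalization, as the values show, and FPKM per gene, which equal the deposited count per gene length and per 1 library constant. The constant and the total count were up to 4.74% apart. Per the submitters' processing notes, the genome build was hg38. The sources used here do not give the aligner, the counter or the use of strand, and the labels' library protocol describes small RNA enrichment.

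From the counts, edgeR 4.0.16 (filterByExpr, minimum count 10, minimum total count 15, TMM) fitted all 14458 genes by its robust two-sided quasi-likelihood test, and p-values were Benjamini-Hochberg adjusted over all genes (threshold 0.05). SE and intervals come from that fit, and the biological coefficient of variation was 0.11. The FPKM were tested with limma 3.58.1 on log2(FPKM + 1) where the mean reached 1 FPKM, a scale that shrinks the fold changes of low genes. DESeq2 1.42.0, other scalings and filters, a GC correction (natural spline, 5 df), a replicate block and leaving out each library were alternatives. The function was tested on simulated data. Columns of other samples numbered 0.

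The members and lists were chosen with earlier results of these data known. Named genes are the 8 members, up to 4 genes per partner list with the smallest p, the closest profiles and GPX3. Other list genes named beside them were chosen after their values were seen. Of the genes the rule names, 1 is not reported here.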

Additional observations from a re-analysis of the deposited data

How the results depend on the processing

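Of the 8 genes, 0 were called under each of the 19 alternatives, and of their 150 values 132 kept their direction. HLA-B turned to -0.02 and HLA-C to -0.05 after the GC correction, and likewise with the GC correction and replicate block together. B2M was -0.01 with upper-quartile scaling and -0.04 with total counts only, TAP2 was -0.02 and -0.06 there, and NLRC5 was -0.02 with total counts only, -0.07 after the GC correction and -0.06 with the block added. Leaving out 1 library gave -0.03 to 0.12 for B2M, -0.03 to 0.08 for TAP2 and -0.08 to 0.15 for NLRC5. Scaling by total counts moved the median of all genes from -0.02 to -0.08.

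Over all genes edgeR called 38, 14 higher and 24 lower. Total counts only gave 68 (13 higher and 55 lower), no filter 129, the GC correction 4, DESeq2 115, and limma 10 on log2(FPKM + 1), 11 with 0.1 added and 1 without a filter. Leaving out 1 library gave 1 of 14767 genes (without OE_GPX3 replicate 2) to 657 of 14707 (without OE_GPX3 replicate 1). Over the 82 partner genes the 1 call became 0 with the GC correction, also with the block, with DESeq2, which gave ULBP1 no adjusted p, and with limma in all 3 forms, and 0 to 6 when leaving out 1 library. The cause was not tested.

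With the replicate block 231 genes were called over all, 3 among the partner genes (ULBP1, FCGRT and RFXANK) and 0 of the 8 members. The labels do not say that the numbers pair the libraries, so the main fit did not take them as pairs. The correlations of same-numbered libraries were 0.1923, 0.0104 and 0.1142, and those of differently numbered libraries ran from -0.1510 to 0.0493. Most libraries thus correlated best with their own number, but not every one, and whether the numbers are pairs was not tested.

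Low counts limit the precision of NLRC5 (149 to 226 counts), TAP2 (208 to 251) and ULBP1 (25 to 126), and also of CIITA (9 to 24), ULBP3 (9 to 20), ULBP2 (19 to 39) and ERAP2 (16 to 37).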

Other observations

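Other class I-like ligands of NKG2D and of unconventional T cells ranged from a few counts or none to moderate levels. RAET1L had 0 to 3 counts per library and CD1D 0 to 1, too few to test. These genes were chosen after their values were seen. MICA averaged 27 ± 2.05 CPM under Vector and 27 ± 3.65 under OE_GPX3 (SD, n = 3 each). On the log2 scale its difference was 0.00 (95% interval -0.26 to 0.26). ULBP2 was at 1.82 ± 0.601 and 1.45 ± 0.311 CPM, and ULBP3 at 0.868 ± 0.294 and 0.756 ± 0.0979 CPM (SD, n = 3 each), with log2 fold changes of -0.32 and -0.21 whose intervals, -0.99 to 0.36 and -1.07 to 0.66, include 0. Whether ULBP1 differs from these relatives was not tested. MR1, which presents vitamin metabolites to mucosal-associated T cells, had -0.11, and HFE, the iron-regulating class I-like protein, had 0.04. The 2 endoplasmic reticulum aminopeptidase genes differed in level, ERAP1 at 2.76 ± 0.412 FPKM and ERAP2 at 0.18 ± 0.0292 FPKM in Vector (SD, n = 3 each), with log2 fold changes of 0.03 and 0.13.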
